A study of Mus musculus with 12 samples.

Results

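Cytosolic ribosomal protein genes were taken from the gene counts of the mouse organ of Corti by symbol: names made of Rpl or Rps and a number, with the few suffixes used for paralogs, together with Rplp0, Rplp1, Rplp2 and Rpsa. Pseudogenes named with -ps and the ribosomal S6 kinases (Rps6k) were left out. This gave 85 of the 55348 genes counted, 53 of the large subunit and 32 of the small subunit. Among them the rule kept Rpl32l and Rpl6l, annotated as processed pseudogenes, and Rps4l, a transcribed processed pseudogene. RNA came from 4 genotypes at postnatal day 21, with 3 libraries each and 12 in all. Clrn1-/- mice lack exon 4 of Clrn1 constitutively, removed between LoxP sites by PGK-cre, Clrn2-/- mice carry the clarinet nonsense mutation of Clrn2, and Clrn1-/-Clrn2-/- mice were bred from these lines. Wild-type mice came from breedings of their own and were no littermates, so that line and genotype cannot be told apart. The organ of Corti was freed of stria vascularis and modiolus. How many animals a library holds is not given in the sources used here, and the p-values below measure the spread between these libraries, which may be partly technical.

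Each cytosolic ribosome joins a small subunit, which reads the mRNA, to a large subunit, which forms the peptide bonds, and almost every ribosomal protein is present once per ribosome and encoded by a single working gene. Their mRNAs are short, abundant and often begin with a run of pyrimidines at the cap, through which mTOR signalling sets their translation. Mammalian genomes also hold many processed copies of these mRNAs, inserted elsewhere without introns, most of them silent. Hair cells and cochlear neurons depend on this machinery as all cells do, and its mRNA level is often read as a measure of a cell's capacity for protein synthesis.

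The gene counts of a library summed to 30008679 at the lowest and 41049302 at the highest. All levels are in CPM, read counts scaled to the TMM-normalized library size. Clrn1 was at 23.8 to 28.6 CPM in wild-type and at 1.77 to 3.04 CPM in the 6 libraries without clarin-1, while Clrn2, whose mutation need not change its mRNA, was at 1.89 to 3.24 CPM in wild-type, 1.04 to 1.38 CPM in Clrn2-/-, 0.921 to 1.18 CPM in double-mutant and, also low, 0.853 to 1.04 CPM in Clrn1-/- mice. All 8 hair cell markers and all 8 supporting cell markers were detected, and 6 skeletal muscle markers summed to at most 2.42 CPM. Over- and under-expressed genes are those that changed at least 1.5-fold and had, in edgeR's quasi-likelihood test over 19052 genes, a p of at most 0.05 after Benjamini-Hochberg adjustment. Of the 85 genes, 81 passed the filter on low counts. The other 4 were Rpl3l, the muscle form of Rpl3, with 4 to 16 counts per library, Rpl32l with 2 to 9, Rpl39l with 1 to 5, and Rpl10l, a testis form of Rpl10, with 0 in every library, which allows up to 3 counts in each.

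In wild-type mice the 85 genes together held 0.995% to 1.03% of all counts. Rpl4 was highest of them before correction for length, at 428 CPM. Per kilobase of the principal transcript, the first 5 were Rplp1 at 548 ± 31.7 CPM (SD, n = 3), Rps15 at 413 ± 8.61, Rps14 at 328 ± 29.8, Rps27 at 313 ± 12.2 and Rpl41 at 310 ± 6.39. The order of the last 3 was within their spread. Rplp1 belongs to the acidic stalk that recruits elongation factors, and Rpl41 is among the smallest proteins encoded in the genome. At the low end, Rpl24 was at 0.16 CPM, Rps10 at 2.58 CPM and Rpl13a at 8.15 CPM. These 3 genes share 47.0%, 20.6% and 35.4% of their exonic length with another gene annotated on the same strand, where reads are not assigned to either gene, so that their levels are uncertain.

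The 5′ ends of the genes were read from RefSeq start sites on GRCm38.p6, of which 63 of the 85 genes had at least 1. A run of at least 8 pyrimidines (C or T, on the strand of the gene) reached to within 10 bases of the start in 28 of these 63 genes. Counted by start site, it was present in 31 of 75 windows of ribosomal protein genes (41.3%) and in 4497 of all 32851 windows (13.7%). Examples are shown for 2 genes with a RefSeq start at or near the Gencode start, Rpl34 (0 bases away) and Rps27 (3 bases away), and for Rps26, whose starts lie 241 bases apart, with 10 bases before the start, 20 from it and the run in capitals.
Rpl34, chr3:130730318-130730347, minus strand: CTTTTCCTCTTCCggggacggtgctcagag
Rps27, chr3:90213629-90213658, minus strand: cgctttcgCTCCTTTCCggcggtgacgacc
Rps26, chr10:128626487-128626516, minus strand: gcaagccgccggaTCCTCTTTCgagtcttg
The run of Rpl34 extends over 20 bases and begins before the stretch shown. Rpl34 and Rps26 were among the genes that changed most in Clrn1-/- mice, whereas Rps27 fell by 0.29 on the log2 scale.

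Loss of clarin-1 alone was accompanied by a steep fall of a few ribosomal protein genes. Of the 81 tested, 6 were under-expressed in Clrn1-/- mice, namely Rpl29, Rpl35a, Rps4l, Rpl21, Rpl34 and Rps26, beside 3.7% of all genes tested. By edgeR, limma-voom and DESeq2, 0 were over-expressed, beside 3.52% of all genes, with 1 (Rpl24) at an unadjusted p under 0.05 in edgeR. In Clrn2-/- mice these 6 genes kept within 0.10 of wild-type on the log2 scale, and in Clrn1-/-Clrn2-/- mice, which lack clarin-1 as well, Rpl29 alone was still past both thresholds.

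The 6 genes lie on 6 chromosomes (GRCm38). Rpl29 (ENSMUSG00000048758.14) is at chr9:106429454-106431568, Rpl35a (ENSMUSG00000060636.14) at chr16:33056453-33060189, Rpl21 (ENSMUSG00000041453.12) at chr5:146832890-146837032 and Rps4l (ENSMUSG00000063171.4) at chr6:148354656-148355598, all on the plus strand, with Rpl34 (ENSMUSG00000062006.12) at chr3:130726831-130730398 and Rps26 (ENSMUSG00000025362.6) at chr10:128624534-128626747 on the minus strand. Counts cover the exons of each gene.

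Rpl29, a large subunit protein also known for binding heparin, was at 111, 112 and 109 CPM in the wild-type libraries, 7.87, 7.21 and 7.76 CPM in Clrn1-/-, 119, 116 and 120 CPM in Clrn2-/-, and 52.3, 68.4 and 83.1 CPM in Clrn1-/-Clrn2-/-. The libraries of Clrn1-/- mice thus lay far below all others, and those of the double mutants lay between them and wild-type without overlap. The log2 fold change was -3.86 ± 0.13 (SE, edgeR adjusted p = 8.53e-12) in Clrn1-/- mice, a 14.5-fold lower level, and -0.70 ± 0.10 (edgeR adjusted p = 5.78e-05) in the double mutants. Without the first double-mutant library, which was the lowest, the latter was -0.55 and no longer reached 1.5-fold. Between libraries of the double mutant the coefficient of variation of Rpl29 was 22.7%, the highest of the 79 genes that averaged 5 CPM or more, against a median of 2.78%.

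Rpl35a, in which mutations cause Diamond-Blackfan anemia, was at 58.3, 61.7 and 61.5 CPM in wild-type and 19.0, 22.9 and 25.8 CPM in Clrn1-/- mice, with 61.0 to 67.5 CPM in Clrn2-/- and 52.8 to 56.7 CPM in the double mutants. The fall in Clrn1-/- mice was 2.67-fold (log2 fold change -1.42 ± 0.08, edgeR adjusted p = 6.36e-09). In the double mutants all 3 libraries were below wild-type, by a margin that did not pass the test (log2 fold change -0.15, edgeR adjusted p = 0.144).

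Rpl21, linked to hereditary hair loss, was at 147, 150 and 155 CPM in wild-type and 56.4, 59.5 and 72.1 CPM in Clrn1-/- mice, and at 157 to 168 CPM in the other 6 libraries. Rpl34, a large subunit protein, was at 78.6, 79.9 and 86.7 CPM in wild-type and 35.7, 39.9 and 45.6 CPM in Clrn1-/- mice, and at 81.3 to 86.6 CPM elsewhere. Neither gene had any Clrn1-/- library within the range of another genotype. In the double mutants Rpl34 overlapped with wild-type, while all Rpl21 libraries were above it by a margin that did not pass the test (log2 fold change 0.10, edgeR adjusted p = 0.255). In Clrn1-/- mice Rpl21 fell by 1.27 ± 0.07 on the log2 scale (edgeR adjusted p = 3.08e-09) and Rpl34 by 1.01 ± 0.07 (edgeR adjusted p = 3.34e-08).

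Rps26, which lines the mRNA exit channel of the small subunit, was at 94.3, 98.3 and 100.3 CPM in wild-type and 50.4, 53.01 and 59.9 CPM in Clrn1-/- mice, where it fell by 0.84 ± 0.05 on the log2 scale (edgeR adjusted p = 2.8e-08). It was at 93.0 to 98.8 CPM in Clrn2-/- and 100.7 to 105 CPM in the double mutants. Rps4l, annotated as a transcribed processed pseudogene of the Rps4x type, was at 49.6, 47.8 and 52.5 CPM in wild-type, 16.8, 20.7 and 21.2 CPM in Clrn1-/-, 47.2 to 49.1 CPM in Clrn2-/-, and 34.3, 33.7 and 39.4 CPM in the double mutants. Like Rpl29, Rps4l had intermediate libraries in the double mutants, which overlapped with neither wild-type nor Clrn1-/-. Its log2 fold changes were -1.35 ± 0.08 (edgeR adjusted p = 8.87e-09) in Clrn1-/- and -0.48 ± 0.08 (edgeR adjusted p = 0.000109) in the double mutants.

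**Figure D1:**
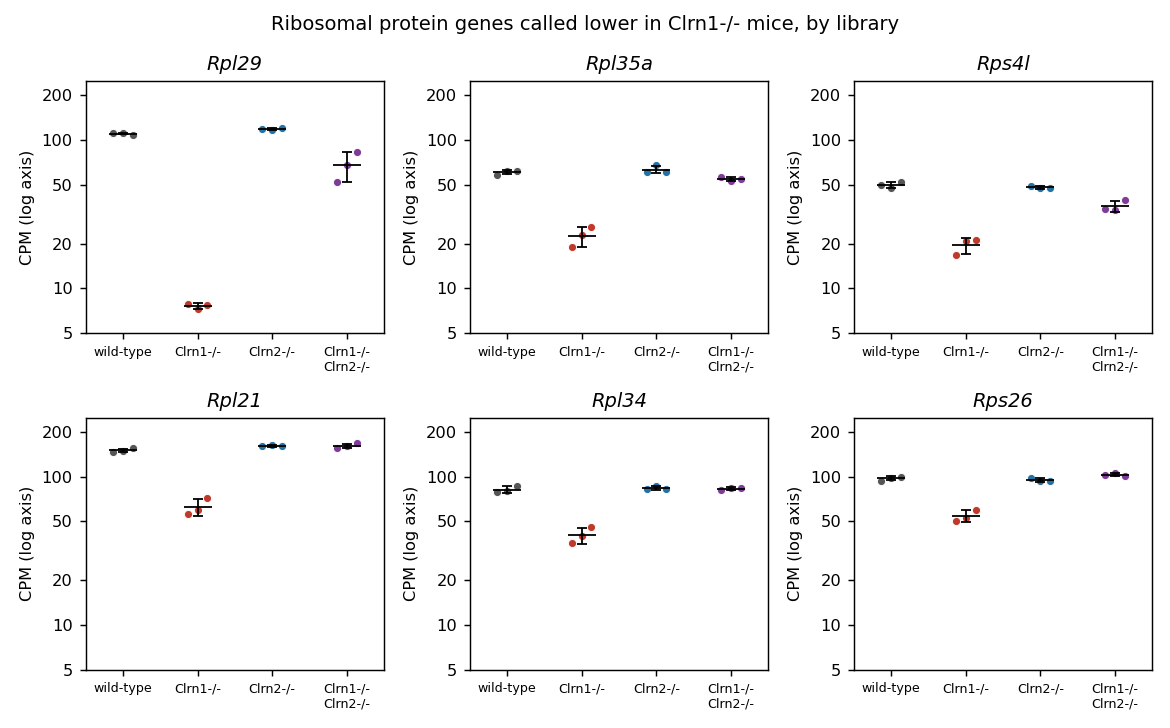
CPM of the 6 ribosomal protein genes called under-expressed in Clrn1-/- mice, on a log axis, for the 3 libraries of each genotype (points) with the mean and SD (bars). The Clrn1-/- libraries lie lowest for every gene, at 7.21 to 7.87 CPM for Rpl29, and Rpl29 and Rps4l are intermediate in Clrn1-/-Clrn2-/- mice.

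Among genes of cytosolic ribosomal proteins that the naming rule leaves out, 3 were looked at, Rps3a1, Rpl36al and Fau, and 1 of these was also under-expressed in Clrn1-/- mice. Rps3a1, a core protein of the small subunit, was at 176, 178 and 192 CPM in wild-type, 45.1, 38.0 and 40.6 CPM in Clrn1-/-, 194 to 206 CPM in Clrn2-/-, and 170 to 192 CPM in Clrn1-/-Clrn2-/- mice. The Clrn1-/- libraries stood clear of the rest, with a fall by 2.15 ± 0.06 on the log2 scale (edgeR adjusted p = 2.97e-12). Fau, a ubiquitin-like fusion with Rps30, was at 121 to 130 CPM in wild-type and 116 to 125 CPM in Clrn1-/- mice, and the 2 ranges overlapped. Rpl36al, an autosomal relative of Rpl36a, was under 1 CPM in every library.

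Near-identical copies of the ribosomal protein genes were looked for among all annotated mouse transcripts, as those with at least 95% identity over at least 200 bases on the same strand. Of 612 copies found, 154 passed the filter on low counts. Of these, 11 rose and 17 fell past both thresholds in Clrn1-/- mice (3.52% and 3.7% of all genes), 5 rose and 5 fell in Clrn2-/- mice (1.24% and 1.42%), and 7 rose and 1 fell in the double mutants (5.88% and 4.02%). Reads that fit several places equally well are not counted by STAR, and 2.38% to 2.66% of the reads of a library were of this kind. For a few of the falling genes, copies rose in the same libraries.

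The 6 copies of Rps3a1 together reached 9.46, 10.0 and 11.8 CPM in wild-type, 103, 98.5 and 105 CPM in Clrn1-/-, 12.5 to 14.8 CPM in Clrn2-/-, and 32.8, 30.0 and 25.9 CPM in Clrn1-/-Clrn2-/- mice. Most of the rise was from Rps3a3, a processed pseudogene on the plus strand at chr13:108670603-108671397 (GRCm38), which went from 1.04 to 1.21 CPM in wild-type to 76.5 to 83.7 CPM in Clrn1-/- mice. In Clrn2-/- mice Rps3a3 was at 0.646 to 1.02 CPM, and in the double mutants it was at 14.2 to 19.9 CPM, apart from every other genotype. Its log2 fold change was 6.13 ± 0.13 in Clrn1-/- mice (edgeR adjusted p = 6.05e-14) and 3.92 ± 0.14 in the double mutants (edgeR adjusted p = 5.61e-11). Rps3a2, the closest copy at 99.5% identity, went from 7.33 to 8.93 CPM to 21.2 to 22.8 CPM in Clrn1-/- mice. Rps3a1 and its copies together were at 193 ± 10.0 CPM in wild-type and 144 ± 6.12 CPM in Clrn1-/- mice (SD, n = 3), a ratio of 0.745.

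Rpl29 had 31 copies in the count files. They summed to 2.50, 1.83 and 2.53 CPM in wild-type, 8.69, 10.1 and 10.3 CPM in Clrn1-/-, 2.39 to 2.69 CPM in Clrn2-/-, and 6.59, 5.26 and 4.17 CPM in the double mutants. In the double mutants the library with the lowest Rpl29 had the highest sum of copies and that with the highest Rpl29 the lowest. The copy Gm8210, a processed pseudogene at chr1:43189156-43189638, was at 5.47 to 6.41 CPM in Clrn1-/- mice and 2.16 to 4.03 CPM in the double mutants, but at 0 in 2 of the wild-type libraries and 0.112 CPM in the other. Gm13841, another copy of Rpl29, was at 2.24 to 3.01 CPM in Clrn1-/- mice and at most 0.274 CPM in wild-type. Even with its copies, Rpl29 went from 113 CPM in wild-type to 17.3 CPM in Clrn1-/- mice, a ratio of 0.153.

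The copies of the other genes were also summed. For Rpl34 the 5 copies went from 10.1 CPM in wild-type to 13.8 CPM in Clrn1-/- mice, for Rps26 the 3 copies from 8.19 to 11.9 CPM, and for Rpl35a the 14 copies from 0.663 to 1.29 CPM. The 58 copies of Rpl21 were abundant and went from 104 to 89.1 CPM. The ratios of Clrn1-/- to wild-type for gene and copies together were 0.590, 0.627, 0.390 and 0.595 in this order. For Rps4l no copy was found by this rule. The part of the copies in the fall of the genes was not tested.

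How little separates a gene from its copy is shown by stretches of 60 coding bases, those with the most differences in the aligned part, read from Gencode M21 transcripts 5′ to 3′, with differing bases in capitals.
Rps3a1, chr3:86137940-86142702, minus strand, transcript bases 334 to 393: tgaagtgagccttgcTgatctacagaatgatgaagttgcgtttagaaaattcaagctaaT
Rps3a3, chr13:108670603-108671397, plus strand, transcript bases 201 to 260: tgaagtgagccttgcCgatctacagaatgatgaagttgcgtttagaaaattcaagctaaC
Rpl29, chr9:106429454-106431568, plus strand, transcript bases 144 to 203: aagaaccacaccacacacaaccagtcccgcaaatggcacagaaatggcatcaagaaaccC
Gm8210, chr1:43189156-43189638, plus strand, transcript bases 13 to 72: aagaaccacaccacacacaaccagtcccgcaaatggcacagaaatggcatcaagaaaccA
Over all aligned bases, Rps3a1 and Rps3a3 differ at 9 of 795 and Rpl29 and Gm8210 at 3 of 483, with 0 gaps in either pair.

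**Figure D2:**
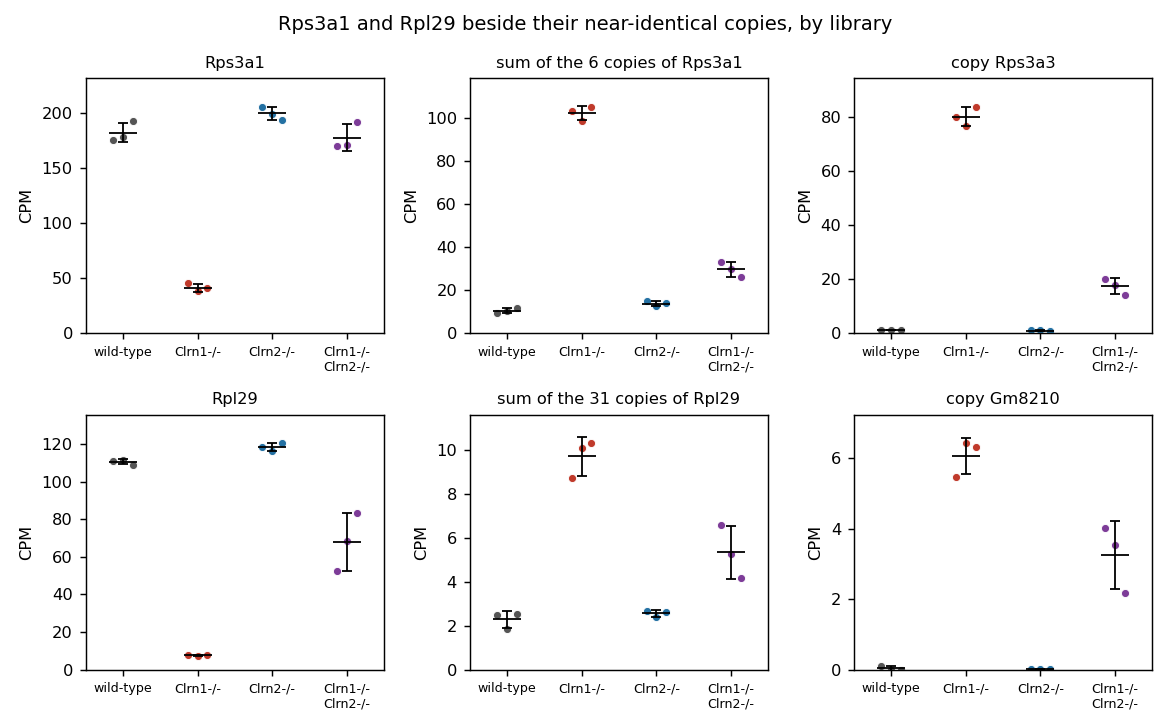
CPM of Rps3a1 and Rpl29, of the sum of their near-identical copies and of 1 copy each, for the 3 libraries of each genotype (points) with mean and SD (bars), on linear axes from 0. In Clrn1-/- mice the genes are lowest and the copies highest, with Rps3a3 at 76.5 to 83.7 CPM and Gm8210 at 5.47 to 6.41 CPM, and in Clrn1-/-Clrn2-/- mice the copies are intermediate.

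Over all 81 genes, the 6 included, the numbers of higher and lower genes differed between the 3 mutants. At an adjusted p of at most 0.05 without a fold minimum, 32 of the 81 genes were lower and 7 higher in Clrn1-/- mice, beside 13.3% and 13.6% of all genes. In Clrn2-/- mice 27 were higher and 4 lower, beside 7.14% and 7.07%. In Clrn1-/-Clrn2-/- mice 47 were higher and 2 lower, beside 19.1% and 17.9%. The medians over the 81 genes were -0.07, 0.10 and 0.14 on the log2 scale, with medians over all genes of 0.00 in each, and the 3 comparisons share the wild-type libraries. Without the 6 genes the medians were -0.03, 0.10 and 0.14. In Clrn1-/- mice all 3 libraries lay below wild-type for 34 genes and above it for 12 (19.8% and 20.5% of all genes), in Clrn2-/- mice for 6 and 36 (14.4% and 14.6%), and in the double mutants for 4 and 57 (23.2% and 25%).

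These counts depended on scaling and on single libraries. With library size alone in place of TMM, 26 genes were lower and 16 higher in Clrn1-/- mice, and 1 lower and 37 higher in Clrn2-/- mice. With the replicate block and the 2 genotypes compared alone, 30 were lower and 11 higher in Clrn1-/- mice. Without wild-type replicate 1, only 3 genes were higher in Clrn1-/- and 27 in double-mutant mice, where 31 were higher without wild-type replicate 2 and 24 without the third double-mutant library.

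**Figure D3:**
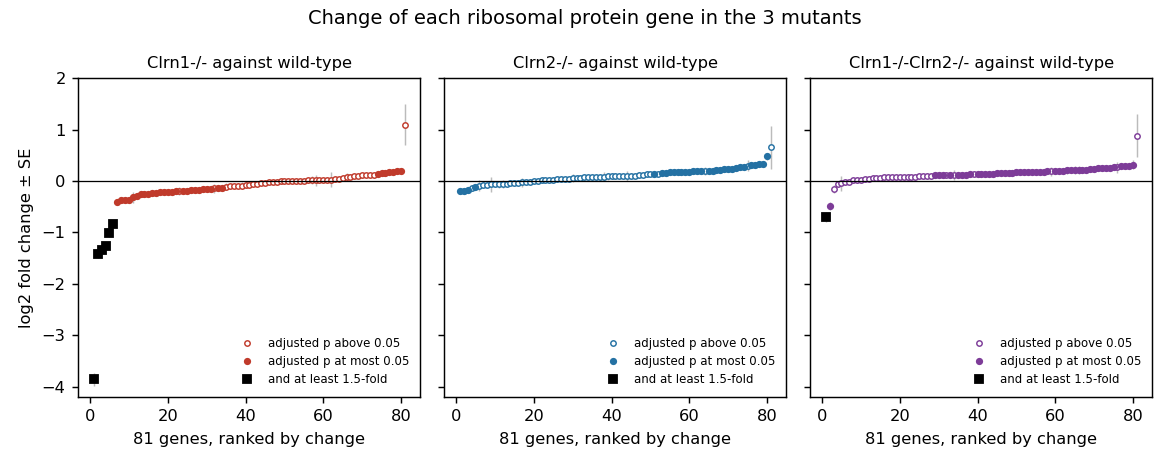
Log2 fold change against wild-type with its SE for the 81 genes tested in each mutant, ranked within each panel. Squares mark genes past both thresholds (6, 0 and 1), filled circles those past the adjusted p alone, and open circles the others; the point at the upper right is Rpl24, counted at under 1 CPM in every library.

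Of the remaining members in Clrn1-/- mice, Rps28, a small protein at the mRNA exit of the small subunit, fell most, from 56.4 to 62.6 CPM in wild-type to 43.2 to 45.4 CPM (log2 fold change -0.40 ± 0.05, edgeR adjusted p = 5.41e-05). Rpl38, whose loss gives the Tail-short mouse, went from 46.7 to 48.6 CPM to 35.8 to 37.4 CPM (log2 fold change -0.37 ± 0.05, edgeR adjusted p = 6.64e-05). Rpl41 went from 178 to 185 CPM to 128 to 150 CPM with the same log2 fold change of -0.37 (edgeR adjusted p = 6.9e-05). For all 3 the Clrn1-/- libraries lay below those of wild-type without overlap, and the falls stayed under 1.5-fold. Rpl24 had the largest rise of all, from 0.140 to 0.192 CPM to 0.233 to 0.467 CPM, at a log2 fold change of 1.10 that missed the threshold (edgeR adjusted p = 0.0517). The largest rises past the test were those of Rps2 and Rpl3, core proteins of the small and large subunit, each by 0.20 on the log2 scale (edgeR adjusted p = 0.00114 and 0.00254).

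In Clrn2-/- mice 0 genes were past both thresholds in either direction by edgeR, limma-voom and DESeq2, beside 1.24% of all genes over- and 1.42% under-expressed, and 0 also at an unadjusted p under 0.05 with the fold minimum. Rpl24 alone exceeded 1.5-fold in size, at 0.66 on the log2 scale (edgeR adjusted p = 0.338). Rps14, in the platform of the small subunit and known from the 5q- syndrome, rose most among genes past the test, from 243, 245 and 285 CPM in wild-type to 341, 352 and 389 CPM. All Clrn2-/- libraries lay above all wild-type libraries, although the third wild-type library was higher than its fellows (log2 fold change 0.48 ± 0.07, edgeR adjusted p = 0.000211). Rpl9 and Rps19, the gene most often mutated in Diamond-Blackfan anemia, followed at 0.34 each (edgeR adjusted p = 0.000244 and 0.000148). The largest decreases were of Rps28, Rpl35 and Rpl38, at -0.19, -0.19 and -0.18 (edgeR adjusted p = 0.0234, 0.0174 and 0.0251). These decreases no longer passed the adjusted p without Clrn2-/- replicate 3 or without wild-type replicate 2.

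In Clrn1-/-Clrn2-/- mice only Rpl29 was under-expressed past both thresholds, beside 4.02% of all genes, and 0 genes were over-expressed by edgeR, limma-voom and DESeq2, beside 5.88%, with 1 (Rpl24) at an unadjusted p under 0.05 in edgeR. The highest rises past the adjusted p were Rpl39, an X-linked protein of the peptide exit tunnel, from 32.6 to 38.0 CPM to 40.6 to 47.8 CPM (log2 fold change 0.32 ± 0.09, edgeR adjusted p = 0.00844), Rpl3 at 0.30 and Rplp0 at 0.29. All 3 had double-mutant libraries wholly above wild-type.

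By role, the stalk proteins went up together in the double mutants. There 47 of the 81 members (58%) were higher at the adjusted p alone, beside 19.1% of all genes. Rplp0, the base of the stalk, was at 337 to 341 CPM in wild-type and 411 to 423 CPM in the double mutants (edgeR adjusted p = 3.39e-05), Rplp1 at 257 to 289 and 303 to 310 CPM (0.17, edgeR adjusted p = 0.0135), and Rplp2 at 74.4 to 85.0 and 90.4 to 102 CPM (0.23, edgeR adjusted p = 0.00566). In Clrn1-/- mice 0 of the 3 passed the adjusted p, and in Clrn2-/- mice Rplp0 and Rplp2 did, at 0.19 and 0.23. Of all members 7 (8.64%) were higher in Clrn1-/- and 27 (33.3%) in Clrn2-/- mice, beside 13.6% and 7.14% of all genes. Rpl5 and Rpl11, which with 5S RNA form the particle that binds Mdm2 when ribosome assembly fails, rose by 0.21 and 0.15 in Clrn2-/- mice (edgeR adjusted p = 0.00968 and 0.0383). In Clrn1-/- mice their changes were -0.07 and -0.06, and in the double mutants Rpl5 rose by 0.19 (edgeR adjusted p = 0.00687), while Rpl11 was at 0.08 (edgeR adjusted p = 0.158).

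Rps6, the substrate of the S6 kinases, was at 93.0 to 97.0 CPM in wild-type, 84.1 to 94.98 CPM in Clrn1-/- and 104 to 109 CPM in the double mutants, where it rose by 0.16 (edgeR adjusted p = 0.0211). Rpsa, also described as a laminin receptor, rose by 0.17 in Clrn2-/- and 0.11 in double-mutant mice (edgeR adjusted p = 0.00975 and 0.0338). Rps27a, made as a fusion with ubiquitin, was at 0.19 (edgeR adjusted p = 0.0973) in Clrn2-/- mice and rose by 0.22 in the double mutants (edgeR adjusted p = 0.0285). The 4 X-linked members, Rpl10, Rpl36a, Rpl39 and Rps4x, all rose in the double mutants at the adjusted p alone, by 0.22, 0.18, 0.32 and 0.16, against 1 of 4 (Rps4x) in Clrn2-/- and 0 of 4 in Clrn1-/- mice. This was the direction of 47 of all 81 members (58%) in the double mutants, beside 19.1% of all genes. It was that of 27 members (33.3%) in Clrn2-/- and 7 (8.64%) in Clrn1-/- mice, beside 7.14% and 13.6% of all genes.

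Of the 7 paralogs listed, 4 could be tested. Rpl7l1, a relative of Rpl7 that acts in ribosome assembly, rose by 0.15, 0.26 and 0.24 in Clrn1-/-, Clrn2-/- and double-mutant mice (edgeR adjusted p = 0.0267, 0.00109 and 0.000502), and Rpl7 itself had changes of 0.12, 0.20 and 0.18. Rps27l, a p53 target beside Rps27, rose in the double mutants alone past the adjusted p, by 0.22 (edgeR adjusted p = 0.0227), where Rps27 was at 0.07. Rpl22l1 was at 25.2 to 35.2 CPM in wild-type and 32.2 to 37.6 CPM in Clrn2-/- mice, with overlap. Whether paralog and parent differed in their change was not tested.

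Summed over the 85 genes, the level was 10056, 10322 and 10710 CPM in wild-type, 9762, 9541 and 10243 CPM in Clrn1-/-, 11324, 11396 and 11349 CPM in Clrn2-/-, and 11247, 11345 and 11663 CPM in Clrn1-/-Clrn2-/- mice. The Clrn1-/- libraries overlapped with wild-type, and all libraries of the other mutants were above both. Relative to wild-type the mean sums were 0.950, 1.10 and 1.10. Without the 6 genes called in Clrn1-/- mice, a choice made after their values were seen, the ratios were 0.983, 1.10 and 1.11. The 6 genes alone went from 551 ± 13.2 to 207 ± 23.4 CPM in Clrn1-/- mice (SD, n = 3). The sum of the small subunit genes divided by that of the large subunit ranged from 0.682 to 0.688 in wild-type and from 0.709 to 0.711 in Clrn1-/- mice, with 0.692 to 0.715 in Clrn2-/- mice and 0.682 to 0.691 in the double mutants. These sums include the 6 genes, of which Rpl29, Rpl35a, Rpl21 and Rpl34 are of the large subunit. Their part in the ratio was not tested.

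**Figure D4:**
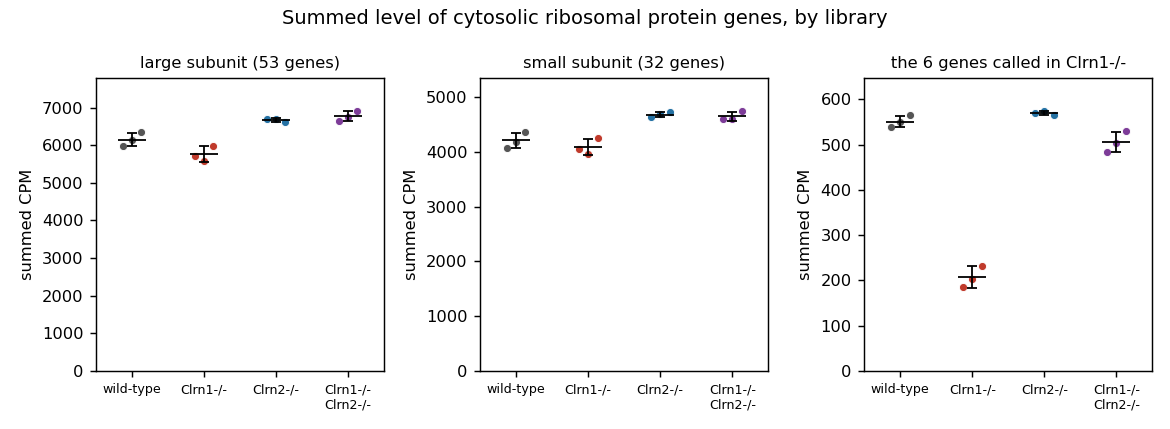
Summed CPM of the 53 large subunit genes, the 32 small subunit genes and the 6 genes called under-expressed in Clrn1-/- mice, for the 3 libraries of each genotype (points) with mean and SD (bars), on axes from 0. The sums of both subunits are highest in Clrn2-/- and Clrn1-/-Clrn2-/- mice, and the 6 genes fall to 207 CPM in Clrn1-/- mice.

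Cell type markers differed between genotypes too. Markers of red blood cells, 6 of 6 detected, summed to 708 to 1155 CPM in wild-type, 285 to 387 CPM in Clrn1-/-, 435 to 654 CPM in Clrn2-/- and 544 to 733 CPM in the double mutants. The 8 supporting cell markers summed to 1708 to 1775 CPM in the double mutants and 1157 to 1344 CPM in the other genotypes, and 8 neuronal markers to 7760 to 7897 CPM against 11252 to 12335 CPM in wild-type, 10428 to 10831 CPM in Clrn1-/- and 9694 to 11199 CPM in Clrn2-/- mice. Hair cell markers summed to 439 to 500.3 CPM in wild-type, 442 to 494 CPM in Clrn1-/-, 484 to 598 CPM in Clrn2-/- and 561 to 589 CPM in the double mutants. Such sums can hide opposite changes. In Clrn1-/- mice Slc17a8 and Gfi1 were under-expressed, at -0.89 and -0.92 on the log2 scale, while Ocm was at 0.51. Within the lower neuronal sum of the double mutants Gap43 was over-expressed, at 0.65. The 6 macrophage markers were at 108 to 140 CPM in wild-type, 122 to 158 CPM in Clrn2-/- mice and, without overlap with wild-type, 168 to 178 CPM in Clrn1-/- and 168 to 197 CPM in double-mutant mice. In a tissue of many cell types, fewer cells of a type and less RNA per cell cannot be told apart, and the part of these markers in the changes of ribosomal protein genes was not tested.

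Transcript length also went with the change in Clrn1-/- mice. Among the 75 genes other than those 6, Spearman's rho between the length of the principal transcript and the log2 fold change was 0.35 for Clrn1-/-, 0.27 for Clrn2-/- and 0.12 for double-mutant mice, as a description across genes that share libraries. Over all 81 genes, the median log2 fold change in Clrn1-/- mice was -0.18 for the 19 of at most 600 bases and -0.03 for the 62 longer ones. Other short and abundant genes, 86 with a principal transcript of at most 1200 bases and a mean of at least 50 CPM, had a median of -0.21, with 16 under-expressed and 0 over-expressed by edgeR in Clrn1-/- mice, beside 3.7% and 3.52% of all genes. In Clrn2-/- mice and the double mutants their medians were -0.05 and -0.09, below those of the ribosomal protein genes. The part of length in these changes was not tested.

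**Figure D5:**
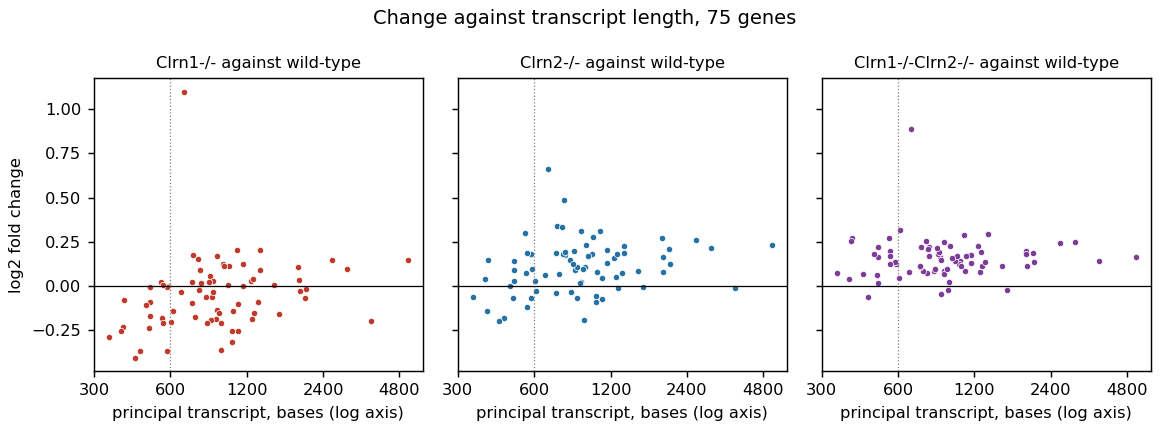
Log2 fold change against wild-type plotted over the length of the principal transcript (log axis) for the 75 genes other than the 6 called in Clrn1-/- mice, with a dotted line at 600 bases. Short genes lie lowest in Clrn1-/- mice (rho 0.35) and show little trend in Clrn1-/-Clrn2-/- mice (rho 0.12).

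The mutants were then compared with each other. Against Clrn2-/- mice, Clrn1-/- mice under-expressed the same 6 genes and over-expressed 0, beside 2.34% and 2.4% of all genes, and against Clrn1-/- mice the double mutants over-expressed these 6 and under-expressed 0, beside 4.62% and 2.61%. Both counts of 0 were the same with limma-voom, DESeq2 and at an unadjusted p under 0.05 in edgeR. At the adjusted p alone, 52 genes were lower and 0 higher in Clrn1-/- than in Clrn2-/- mice (8.99% and 9.51% of all genes), a count that was 25 without the second Clrn1-/- library and 29 without the second Clrn2-/- library. In the double mutants 62 genes were higher and 0 lower than in Clrn1-/- mice (15.7% and 14.6%). Between the double mutants and Clrn2-/- mice, Rpl29 was the 1 gene called, at -0.80 ± 0.10 (edgeR adjusted p = 4.42e-05), beside 1.43% of all genes, with 0 over-expressed by all 3 tools and at an unadjusted p under 0.05 (3.67% of all genes). At the adjusted p alone, 14 genes were higher and 3 lower (14.4% and 13.2%). Fewer genes were higher without the filter on low counts or with 1 library left out.

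The interaction term asked whether losing clarin-1 had the same effect with and without clarin-2. It was past both thresholds for 8 of the 81 genes, all positive, beside 3.58% of all genes, and negative for 0 by all 3 tools and at an unadjusted p under 0.05, beside 1.92%. Without the fold minimum it was positive for 30 genes and negative for 7, beside 9.32% and 8.06%. The 8 were the 6 genes called in Clrn1-/- mice, from 0.93 ± 0.11 for Rps4l to 3.06 ± 0.16 for Rpl29 (edgeR adjusted p = 4.08e-05 and 1.23e-08), with Rps28 at 0.67 ± 0.08 and Rps29 at 0.62 ± 0.08 (edgeR adjusted p = 3.33e-05 and 0.000121). The fall of these genes from wild-type to Clrn1-/- mice was thus smaller, or turned into a rise, from Clrn2-/- to double-mutant mice. The term also holds any difference between the lines, which cannot be told apart from genotype. Rps29, a zinc-binding small subunit protein, was at 78.6 to 88.3 CPM in wild-type, 66.4 to 77.2 CPM in Clrn1-/-, 72.1 to 79.7 CPM in Clrn2-/- and 97.2 to 105 CPM in the double mutants, which were highest.

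Lists of genes around the ribosome were counted in the same way. Of 65 genes of ribosome biogenesis, a list of assembly factors and RNA polymerase I components, 2 were higher and 4 lower in Clrn1-/- mice at the adjusted p alone (13.6% and 13.3% of all genes), 7 and 1 in Clrn2-/- mice (7.14% and 7.07%), and 8 and 3 in Clrn1-/-Clrn2-/- mice (19.1% and 17.9%). Taf1d, a factor of RNA polymerase I, and Nvl, an assembly ATPase, fell most in Clrn1-/- mice, by 0.46 and 0.44, and neither reached 1.5-fold. Of 52 translation factors, 3 were higher and 8 lower in Clrn1-/-, 12 and 2 in Clrn2-/-, and 14 and 4 in double-mutant mice, against the same shares. Pabpc1, the poly(A) binding protein, whose mRNA carries a pyrimidine start as well, was at -0.28 in Clrn1-/-, -0.18 in Clrn2-/- and 0.30 in the double mutants, and Eef1a1, the elongation factor that delivers tRNAs, rose by 0.20 in Clrn2-/- mice and by 0.29 in the double mutants. Of 26 genes of the Myc and mTOR pathways, 1, Mycl, was called past both thresholds, at 0.59 in the double mutants. There 5.88% of all genes were over-expressed. The biogenesis genes summed to 2669 to 2793 CPM in wild-type, 2686 to 2764 CPM in Clrn1-/-, 2821 to 2926 CPM in Clrn2-/- and 2773 to 2816 CPM in the double mutants, so that only the Clrn2-/- libraries lay wholly above wild-type. The translation factors summed to 12067 to 12465 CPM in wild-type and 12103 to 12419 CPM in Clrn1-/- mice, which overlapped, to 12459 to 13132 CPM in Clrn2-/- mice, and to 12645 to 12855 CPM in the double mutants, wholly above wild-type.

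Pseudogenes named after ribosomal protein genes numbered 311, of which 66 were tested. Of them 5 rose and 4 fell past both thresholds in Clrn1-/- mice (3.52% and 3.7% of all genes), 3 and 0 in Clrn2-/- mice (1.24% and 1.42%), and 3 and 1 in the double mutants (5.88% and 4.02%), with medians of 0.01, 0.16 and 0.13 on the log2 scale. All 311 together summed to 392.5 ± 10.7 CPM in wild-type mice, 389 ± 13.6 CPM in Clrn1-/-, 422 ± 7.25 CPM in Clrn2-/- and 430 ± 5.48 CPM in double-mutant mice (SD, n = 3).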

How the data were processed

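Poly(A) RNA of the organ of Corti was made into strand-specific libraries. The deposited values are raw counts per gene, which the authors made with STAR on GRCm38.p6, without normalization or filtering. The column in the orientation of the kit was used, and reads assigned to no gene (13.5% to 15.8%) were left out. Counts were fitted in edgeR 4.0.16 (R 4.3.3) over all 12 libraries by genotype, after filterByExpr with a minimum count of 10 and TMM scaling, with quasi-likelihood tests whose p-values were adjusted by Benjamini-Hochberg over 19052 genes. The fit was tested on simulated data. Standard errors were derived from the test statistic. Gene coordinates are from Gencode M21, start sites from RefSeq and copies from blastn searches of principal transcripts. Members and lists were chosen with earlier results of these data known. The genes named are those called in any comparison, the 3 largest rises and falls in each mutant, members with the roles listed, paralogs, the 5 highest per length and 3 outside the naming rule; Rpl4, the copies and the genes of the other lists were picked after their values were seen. A further gene that the rule for named genes covers is not reported here.

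Alternatives were limma-voom (limma 3.58.1), DESeq2 1.42.0, library size alone, TMM without the ribosomal protein genes, unstranded counts, no filter on low counts, leaving out each library, dropping the fold minimum, the 2 genotypes alone, and a block for the replicate number. Libraries of different genotypes share replicate numbers of no stated meaning. Deviations of same-numbered libraries from their group means were correlated over 12453 genes. The correlations were above 0.1 in all 3 pairs of wild-type and Clrn1-/- (0.269, 0.126 and 0.105). In all, 7 of 18 pairs were above it, in a range from -0.277 to 0.301. Only wild-type and Clrn1-/- thus met the rule set for pairing, which does not establish that these libraries were paired.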

Additional observations from a re-analysis of the deposited data

Results flagged for a closer look

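By edgeR's test of the interaction, the change from wild-type to Clrn1-/- mice differed from that between Clrn2-/- and double-mutant mice. This held for 8 of the 81 genes tested and 1 gene outside the naming rule. Line and genotype cannot be told apart here either. On the log2 scale the difference was 3.06 for Rpl29, 1.98 for Rps3a1, 1.27 for Rpl21, 1.21 for Rpl35a, 1.00 for Rpl34, 0.95 for Rps26, 0.93 for Rps4l, 0.67 for Rps28 and 0.62 for Rps29. Groups of 3 libraries are too small for a test of single outlying samples.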

How the results depend on the processing

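No result changed direction under the alternatives run. The 6 genes under-expressed in Clrn1-/- mice were called under all alternatives. Without a fold minimum the counts over and under were 7 and 32 in Clrn1-/-, 27 and 4 in Clrn2-/-, 47 and 2 in the double mutants, 0 and 52 for Clrn1-/- against Clrn2-/-, 62 and 0 for the double mutants against Clrn1-/-, 14 and 3 against Clrn2-/-, and 30 and 7 for the interaction. With library size alone 1 gene (Rpl24) was over-expressed in Clrn1-/- mice, and with unstranded counts 1 (Rpl23a) was under-expressed in Clrn2-/- mice and over-expressed in the double mutants against Clrn2-/-. Unstranded counts also put Rpl35 and Rpl23a past both thresholds in Clrn1-/- mice (-0.70 and -0.81), in the double mutants against Clrn1-/- (0.63 and 0.95) and in the interaction (1.11 and 1.63). With 1 library left out, 0 to 1 genes were over-expressed in Clrn1-/- and 0 to 1 under-expressed in double-mutant mice, where without double-mutant replicate 1 Rpl29 was at -0.55. Without Clrn1-/- replicate 3 the interaction of Rpl41 was also called, at 0.61. The interaction of Rps29 fell below 1.5-fold in 4 such fits, to between 0.55 and 0.58.

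At the adjusted p alone, counts moved more. Library size alone gave 16 higher in Clrn1-/-, 1 lower in Clrn2-/- and 11 negative interactions. The 2 genotypes alone gave 1 lower in Clrn2-/- mice. Between the double mutants and Clrn2-/- mice, no filter gave 9 higher, and limma-voom, DESeq2 and TMM without these genes gave 5, 6 and 5 lower. Leaving out 1 library gave 3 to 10 higher in Clrn1-/-, 0 to 3 lower in Clrn2-/- (0 without Clrn2-/- replicate 3 or wild-type replicate 2), 24 to 44 higher in the double mutants, 25 to 57 lower for Clrn1-/- against Clrn2-/-, and 7 to 12 higher and 3 to 5 lower for the double mutants against Clrn2-/-. The summed level relative to wild-type was 1.12 in Clrn2-/- and 1.13 in double-mutant mice as a share of counts, 1.12 and 1.14 with unstranded counts, and 1.08 to 1.11 and 1.09 to 1.12 with 1 library left out. The cause of these shifts was not tested.

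The replicate block with the 2 genotypes alone gave 11 higher in Clrn1-/- and 14 higher and 0 lower in Clrn2-/- mice. It changed no call past 1.5-fold, and the block over all libraries moved no count by over 1.5 times. Depth limits what can be said of Rpl24, Rpl36al and the 4 untested genes, and the 2.38% to 2.66% of reads that fit several places equally well limit the levels of genes with near-identical copies.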
